A study of Mus musculus with 21 samples.

Results

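The mouse genes U2af1, U2af2, Sf1, Puf60, Rbm17, Sugp1, Dhx15, Sf3b1 and Rbm22 encode factors that recognise the branch point and the 3' splice site of introns. These 9 genes were chosen by name, with earlier results of these data known, out of 34369 genes with a value in TPM. TPM scales read counts to transcript length and to the library. The study followed RBM10, an RNA-binding regulator of splicing encoded on the X chromosome, by iCLIP and by RNA-seq of polyadenylated RNA. In iCLIP, UV light joins a protein to RNA in the cell, and sequencing locates the joined nucleotide.

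The iCLIP libraries came from md MEPA cells, which derive from the mandibular pharyngeal arch of 11.5 d.p.c. embryos (CD1 females crossed with an Immortomouse male), grown at 33 °C with 100 U per ml of murine interferon. Cells were irradiated at 254 nm with 400 mJ per square cm. There were 4 libraries with an antibody against RBM10 and 4 with rabbit IgG, 1 IgG control per replicate. Each antibody had a sequencing lane to itself, so the effect of the lane and that of the antibody cannot be told apart. RNA-seq covered 3 wild-type (WT) md MEPA samples and 4 Rbm10 knockout (KO) lines of the same cells made with CRISPR/Cas9, each a line of its own. The deletion is in exon 3 in KO1 and KO2 and in exon 9 in the other clones, KO3 and KO4. RNA-seq also covered 3 samples of the male gene trap ES cell line Rbm10Gt(CSI176)Byg and 3 of its parental line E14Tg2a.4, all grown with LIF. The ES KO is a single line, so a difference between it and its parent that has nothing to do with the trap cannot be told apart from the effect of the trap.

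Intron removal begins when the intron's end is read by several proteins. SF1 binds the branch point sequence, the large subunit U2AF2 (U2AF65) binds the pyrimidine tract and the small subunit U2AF1 (U2AF35) the AG dinucleotide at the 3' splice site. PUF60, a relative of U2AF2, helps at weak pyrimidine tracts, and RBM17 (SPF45) shares with U2AF2 relatives a domain that contacts SF3B1. SF3B1, the core of the SF3b complex of the U2 snRNP, then takes over the branch point from SF1. SUGP1, like RBM10 itself, has a G-patch domain, which activates RNA helicases, and DHX15 is a helicase that such proteins activate. RBM22 joins the spliceosome when it is activated for catalysis.

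Library facts that bear on these genes are few. The RBM10 libraries held 774816 to 2847066 crosslinks and the IgG libraries 103017 to 2214515, with IgG 3 and IgG 4 the shallowest. RNA-seq depth is unknown, since TPM columns all sum to the same total. Rbm10 itself had 23.2 and 19.7 TPM in the exon 3 clones, 7.20 and 3.49 TPM in the exon 9 clones and 21.4 to 23.7 TPM in WT md cells. It stood at 3.63 to 4.27 TPM with the gene trap, against 32.2 to 33.5 TPM in the parental ES line. A deletion in exon 3 need not lower TPM, so the first pair of values checks nothing. Of 9 mesenchyme markers 6 reached 1 TPM on average in md WT cells, where the ES markers summed to 9.29 to 10.6 TPM, and all 7 ES markers reached it in ES WT cells, where they summed to 4492 to 5306 TPM.

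U2af1 and Sf1 were the most abundant of the 9 transcripts and Sugp1 the least, on the length-adjusted TPM scale. In md WT cells U2af1 stood at 182 ± 10.2 TPM, Sf1 at 179 ± 11.9, U2af2 at 179 ± 5.73, Dhx15 at 145 ± 5.22, Puf60 at 129 ± 1.96, Rbm17 at 99.5 ± 6.79, Sf3b1 at 35.9 ± 0.775, Rbm22 at 34.3 ± 0.838 and Sugp1 at 16.97 ± 0.987 TPM (SD, n = 3). The ranges of the first 3 genes overlapped, and each later neighbour in this order was separated from the next. In ES WT cells U2af1 (309 ± 18.1 TPM) and Sf1 (308.5 ± 15.4) again led with overlapping ranges, followed by U2af2 (165 ± 9.34), Puf60 (111 ± 2.71), Dhx15 (97.9 ± 0.483), Rbm17 (87.0 ± 4.15), Sf3b1 (41.1 ± 1.81), Rbm22 (34.8 ± 2.10) and Sugp1 (31.7 ± 0.889). The cell types were quantified in separate tables, so levels are not tested between them.

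**Figure D1:**
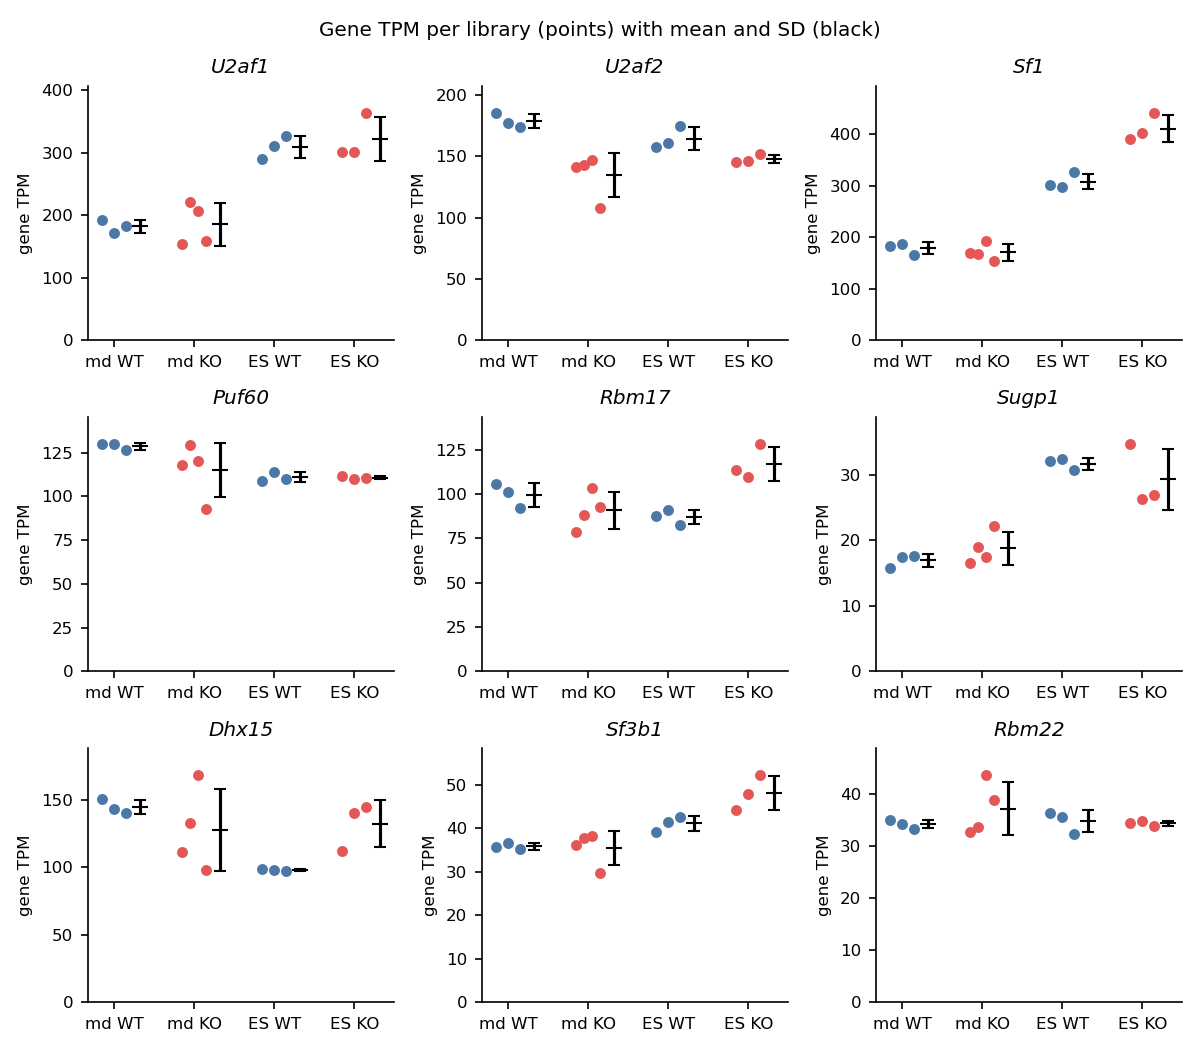
Gene TPM of the 9 genes (vertical axes from 0) in md WT, md KO, ES WT and ES KO samples, 1 point per library in replicate order, with the group mean and SD in black beside the points. U2af2 is lower in all 4 md KO clones than in the 3 WT samples. In ES cells Sf1, Rbm17, Dhx15 and Sf3b1 are higher and U2af2 is lower in all 3 KO samples than in the 3 WT samples. Groups did not overlap for 10.7% of all tested genes in md cells and 38.3% in ES cells.

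The first RNA-seq question is whether loss of RBM10 changed the RNA level of these factors in md cells. No member passed the test there (limma on log2(TPM + 1), Benjamini-Hochberg adjusted p under 0.05), against 0.0165% of the 12090 genes tested, which is 2 genes. At an unadjusted p under 0.05, 829 genes stood out. U2af2 had the lowest p of the 9. It stood at 141.1, 142.7, 146.7 and 107.9 TPM in KO1 to KO4 and at 185.1, 177.5 and 173.9 TPM in WT. Every clone lay below every WT sample, with KO4 the lowest by far, and the groups of 10.7% of all tested genes failed to overlap (6.33% higher in KO and 4.38% lower). The log2 fold change of U2af2 was -0.42 (SE 0.13, limma adjusted p = 0.651). The other 8 genes overlapped between KO and WT, with log2 fold changes from -0.21 (Dhx15) to 0.13 (Sugp1), and their median with U2af2 was -0.07 against 0.01 over all genes tested. KO4 also had the lowest md value of Puf60 (92.98 TPM, against 118 to 129.3 in the other clones), Dhx15 (97.9 against 111 to 168) and Sf3b1 (29.6 against 36.2 to 38.3), and the highest of Sugp1 (22.2 against 16.5 to 19.04). The summed mesenchyme markers ranged from 693 to 2402 TPM in the KO clones and from 1336 to 1618 TPM in WT. Nearly all of that was Col1a1 and Col1a2. Prrx1 was higher in every clone (56.4 to 90.2 against 47.3 to 49.8 TPM), as was Dlx2 (10.8 to 12.8 against 8.72 to 9.51). Msx1 was lower (0.813 to 6.19 against 6.56 to 6.93 TPM). Twist1, Col1a1 and Col1a2 overlapped, and Hand2, Dlx5 and Pdgfra lay below 1 TPM in WT. The part of these markers in the members' values was not tested.

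Clones of the 2 deletions were also compared with each other. None of the 9 genes differed between exon 9 and exon 3 clones, against 3.73% of genes called, a number that ran from 51 to 2228 genes when single libraries were left out in place of 451. Rbm22, needed late in spliceosome activation, came closest. It stood at 43.7 and 38.8 TPM in the exon 9 clones and at 32.7 and 33.7 TPM in the exon 3 clones, beside 33.4 to 35.1 TPM in WT. The log2 fold change was 0.30 (SE 0.11, limma adjusted p = 0.189). U2af2 was -0.50 (SE 0.14, limma adjusted p = 0.191) in exon 9 clones and -0.33 (SE 0.14, adjusted p = 0.321) in exon 3 clones, both against the same WT samples.

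In ES cells Sf1 and Rbm17 were higher in the gene trap line. Sf1, the branch point binding protein, had 390.9, 402.5 and 441.1 TPM in KO and 301.7, 297.7 and 326.1 TPM in WT. The lowest KO sample lay above the highest WT sample, and the log2 fold change was 0.41 (SE 0.09, limma adjusted p = 0.0344). Rbm17 had 113.5, 109.6 and 128 TPM in KO against 87.5, 90.8 and 82.6 TPM in WT, again without overlap (0.42, SE 0.09, limma adjusted p = 0.0357). These were 2 of 9 members called, beside 12.3% of the 12860 genes tested (7.53% called higher and 4.73% called lower). Neither call held under quantile normalization (0.31, limma adjusted p = 0.0527 for Sf1, and 0.34, adjusted p = 0.0747 for Rbm17), nor with no filter on low values (the same log2 fold changes, adjusted p = 0.0537 and 0.0524). They were also lost without any 1 of KO2, KO3, WT1 and WT2, where the log2 fold changes lay from 0.36 to 0.43 for Sf1 and from 0.36 to 0.47 for Rbm17, adjusted p lay between 0.109 and 0.144 and the number of called genes fell from 1576 to between 21 and 61.

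Dhx15 and Sf3b1 lay above WT in every ES KO sample too, but missed the threshold. Dhx15, the helicase, had 112, 140.4 and 144 TPM in KO and 98.4, 97.9 and 97.4 TPM in WT. Its log2 fold change was 0.42 (SE 0.11, limma adjusted p = 0.0520), with the first KO sample lowest, and it passed when only genes at 5 TPM or more were tested (0.42, adjusted p = 0.0480). Sf3b1 had 44.2, 47.9 and 52.2 TPM in KO against 39.1, 41.6 and 42.6 TPM in WT (0.22, SE 0.09, limma adjusted p = 0.140). Without KO1, 3985 genes were called, and Dhx15 (0.54, adjusted p = 0.00517), Sf3b1 (0.28, adjusted p = 0.0443) and Sugp1 (-0.24, adjusted p = 0.0432) were among them. U2af2 was lower in every KO sample, at 145.5, 146.6 and 151.8 TPM against 157, 161 and 175 TPM in WT (-0.15, SE 0.08, limma adjusted p = 0.221). Groups did not overlap for 38.3% of all tested genes (23.8% higher in KO and 14.5% lower). U2af1, Puf60, Sugp1 and Rbm22 overlapped between KO and WT, with log2 fold changes from -0.12 to 0.05. Beside these values, the summed endothelial markers ran from 10.8 to 21.0 TPM in KO and from 22.3 to 28.8 TPM in WT with Cdh5 listed at 0 throughout. The leukocyte markers summed to 22.0 to 30.1 against 49.0 to 61.4 TPM, nearly all of it Laptm5, with Ptprc listed at 0. The epithelial markers summed to 194 to 228 against 170 to 191 TPM and the mesenchyme markers to 3.89 to 7.73 against 2.82 to 3.27 TPM. The ES markers summed to 4599 to 4817 against 4492 to 5306 TPM. Lower in every KO sample were Nanog (165 to 229 against 313 to 344 TPM) and Esrrb (80.3 to 137 against 203 to 249). Sox2 was lower too (166 to 192 against 208 to 263 TPM). Utf1 (453 to 665 against 314 to 387 TPM) and Pou5f1 (634 to 683 against 553 to 571) were higher. Zfp42 and Dppa5a overlapped. The part of these shifts in the members' values was not tested.

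The difference between the KO effects in the 2 cell types was tested as an interaction. It passed for none of the 9 genes, against 0.985% of 10558 genes. Rbm17 had a difference (ES minus md) of 0.56 (SE 0.15, limma adjusted p = 0.0802), Sf1 of 0.49 (SE 0.14, adjusted p = 0.0871) and Dhx15 of 0.63 (SE 0.23, adjusted p = 0.145). The Rbm17 and Sf1 calls in ES cells are therefore not shown to be specific to them.

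Other genes of the same machinery were taken as a list of 34 (the remaining SF3a and SF3b subunits, U2 proteins, U2AF relatives and later 3' splice site factors), of which 33 were tested in each cell type. None was called in md cells, where 12 of 33 were above 0 and the median log2 fold change was -0.05. In ES cells 3 were called, all higher, where 12.3% of all genes were called and 7.53% called higher. Of the 33, 30 were above 0, against 6900 of 12860 genes, with a median of 0.24 against 0.03 over all genes. Phf5a, an SF3b subunit at the branch point pocket, rose from 147 ± 12.96 to 228 ± 23.9 TPM (0.63, SE 0.11, limma adjusted p = 0.0249). Aqr, the helicase of the intron-binding complex, rose from 47.5 ± 3.26 to 68.6 ± 2.76 TPM (0.52, SE 0.09, limma adjusted p = 0.0226), and Sf3b4 rose from 49.5 ± 1.92 to 69.5 ± 9.11 TPM (0.47, SE 0.11, limma adjusted p = 0.0427; SD, n = 3 each for all 3 genes). Of 19 other G-patch genes, all tested, none was called in md cells (median 0.00), and in ES cells Aggf1 was higher (0.57, SE 0.13, limma adjusted p = 0.0378) and Rbm10, the trapped gene, lower (median 0.15).

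Isoforms were read from the deposited transcript TPM. A cassette exon is an exon that some transcripts include and others skip, and its PSI (percent spliced in) is the TPM share of the including transcripts. No member exon or transcript was called in either cell type, at a threshold of an adjusted p under 0.05 and a difference of at least 10 points. Of all exons tested, 0 of 4148 passed in md cells and 0.494% of 3850 in ES cells, and 377 md exons had an unadjusted p under 0.05. For transcript shares it was 0 of 18725 and 0.0477% of 18872, 11 and 10 of them transcripts of these genes. Members with cassette exons to test were Puf60, Sf1 and U2af2.

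Of these exons the one in Puf60 differed most. Its 51-nt exon is coding exon 5 of 12 in transcript Puf60-202 and is the only exon by which this transcript differs from Puf60-201, with a length that is a multiple of 3.

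In md cells the Puf60 exon had a PSI of 41.3, 52.9, 52.7 and 46.8% in KO1 to KO4 and of 39.7, 39.4 and 35.4% in WT. Every clone lay above every WT sample, KO1 by the least. The means were 48.4 ± 5.55% (SD, n = 4) and 38.1 ± 2.38% (n = 3), a difference of 10.3 points (SE 3.40, limma adjusted p = 0.420). In ES cells inclusion stood at 16.5, 23.2 and 24.8% in KO and 9.03, 9.86 and 11.9% in WT. All 3 KO samples again lay above all 3 WT samples, by 11.2 points on average (SE 2.72, limma adjusted p = 0.148). Over the alternatives tried adjusted p stayed between 0.229 and 0.702 in md and between 0.0874 and 0.381 in ES cells, so the exon was called under none. Of 2800 cassette exons tested in both cell types, 54 (1.93%) had every KO sample above every WT sample in both, and 11 (0.393%) did so with at least 10 points in each. In TPM, Puf60-202 had 43.5 to 68.4 TPM in md KO and 44.7 to 51.5 in WT, and the skipping transcript Puf60-201 had 59.1 ± 8.26 and 79.5 ± 1.83 TPM.

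**Figure D2:**
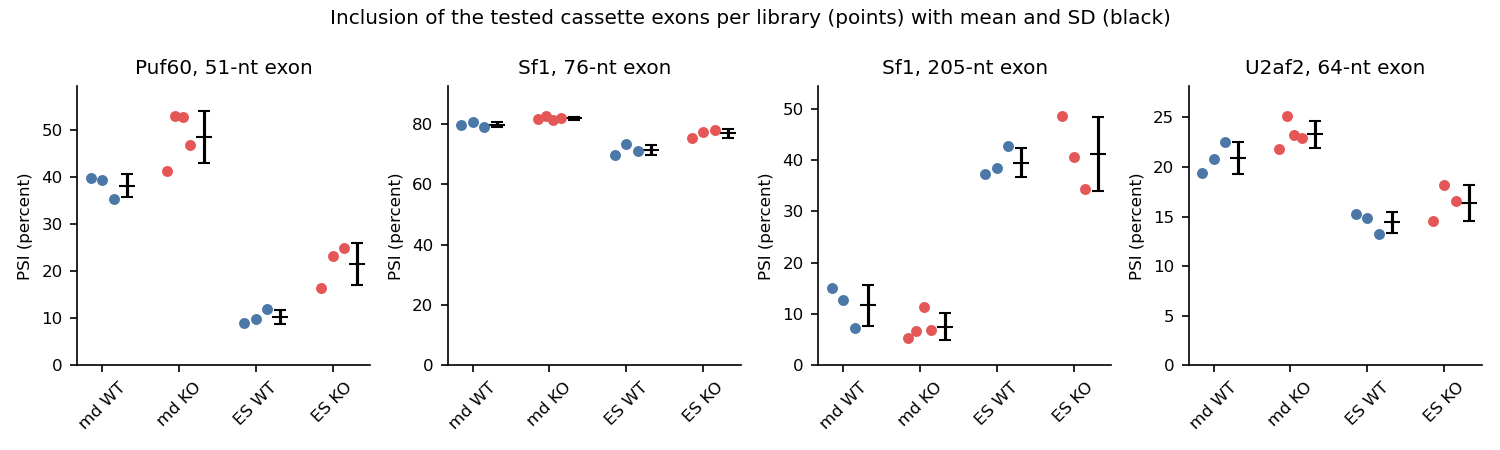
PSI in percent (vertical axes from 0) of the 4 tested cassette exons of Puf60, Sf1 and U2af2 in md WT, md KO, ES WT and ES KO samples, 1 point per library, with the group mean and SD in black. The Puf60 exon is higher in every KO sample than in every WT sample of the same cell type, and the 76-nt Sf1 exon is too, by 2.04 points in md and 5.53 points in ES cells. This held for 1.93% of the 2800 cassette exons tested in both cell types.

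Sf1 has 2 tested cassette exons. The 76-nt exon at 19:6368364-6368439 (plus strand of mm9), coding exon 3 in the 6 annotated transcripts that include it, had a PSI of 81.8 ± 0.603% in md KO and 79.8 ± 0.749% in WT (2.04 points, SE 1.59, limma adjusted p = 0.739). In ES cells it was 76.9 ± 1.47% and 71.3 ± 1.79% (5.53 points, SE 2.51, limma adjusted p = 0.390). KO and WT samples did not overlap in either cell type, as for 10.6% of exons in md cells (5.74% higher in KO and 4.82% lower) and 21.1% in ES cells (11.2% higher and 9.84% lower). The 205-nt exon at 19:6375658-6375862, coding exon 13 of Sf1-003, differed between cell types in level. It had 7.58 ± 2.65% in md KO, 11.7 ± 4.01% in md WT, 41.1 ± 7.17% in ES KO and 39.5 ± 2.89% in ES WT, with KO and WT overlapping in both (-4.14 points, limma adjusted p = 0.681, and 1.63 points, adjusted p = 0.902). Sf1-001 held 33.8 to 36.9% of Sf1 TPM in md KO and 28.7 to 31.8% in WT (4.74 points, SE 1.91, limma adjusted p = 0.605), and Sf1-015 held 35.1 to 37.5% in ES KO and 30.8 to 35.2% in WT (2.82 points, adjusted p = 0.721).

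U2af1 has a pair of transcripts that differ in exon 3 alone, a 67-nt coding exon that is taken from one of 2 places in the gene. The sequences of the versions are identical at 44 of 67 positions (65.7%). They are shown 5′ to 3′ from the minus strand, at 17:31788591-31788657 for U2af1-201 and 17:31789447-31789513 for U2af1-202, because this choice is the only annotated isoform difference of the gene.
U2af1-201 exon 3: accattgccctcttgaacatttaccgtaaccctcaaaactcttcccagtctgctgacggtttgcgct
U2af1-202 exon 3: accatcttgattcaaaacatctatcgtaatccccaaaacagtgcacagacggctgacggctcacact

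U2af1-202 held 16.8, 16.1, 20.5 and 27.5% of U2af1 TPM in md KO1 to KO4 and 16.5, 16.0 and 14.2% in WT. The groups overlapped, with KO4 highest (4.67 points, SE 2.97, limma adjusted p = 0.753). In ES cells it held 34.4, 25.6 and 24.5% in KO and 23.1, 24.5 and 21.9% in WT, with KO1 highest (5.00 points, SE 3.34, limma adjusted p = 0.613). U2af2 has a 64-nt exon at 7:5020335-5020398 (plus strand), annotated only in U2af2-202, where it is not coding. U2af2-202 also starts within exon 3 of U2af2-201, has a shorter form of its exon 10 and an intron within its last exon. The PSI of the 64-nt exon is therefore the TPM share of the whole transcript U2af2-202. This PSI was 23.3 ± 1.38% in md KO and 20.9 ± 1.60% in WT (2.40 points, SE 1.74, limma adjusted p = 0.722), and 16.4 ± 1.82% and 14.4 ± 1.05% in ES cells (1.97 points, SE 1.93, adjusted p = 0.704). Rbm22-001 held 95.4 ± 1.13% of Rbm22 TPM in md KO and 91.9 ± 1.66% in WT (3.53 points, SE 1.49, limma adjusted p = 0.625). In ES cells it held 96.9 ± 0.436% in KO and 96.3 ± 1.65% in WT, with overlapping groups, and was not tested. Rbm17-001 held 95.7 to 97.8% of Rbm17 TPM on average in every group. Sugp1, Dhx15 and Sf3b1 have 1 annotated transcript each.

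The iCLIP question is whether RBM10 contacts the transcripts of these factors. Over their gene bodies 6 of the 9 genes carried more crosslinks in the RBM10 than in the IgG libraries, and these 6 were U2af1, U2af2, Puf60, Rbm17, Sugp1 and Rbm22. Over all 9284 genes tested 37.4% were called, 20.4% higher and 17% lower (edgeR quasi-likelihood test with TMM, adjusted p under 0.05). The median log2 fold change was 1.35 over the 9 genes and 0.05 over all genes. Without TMM factors 29.8% of genes were called higher, and the same 6 members and Sf1 were among them. Called genes numbered 2299 without IgG 1 and 1794 without IgG 2, in place of 3472.

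**Figure D3:**
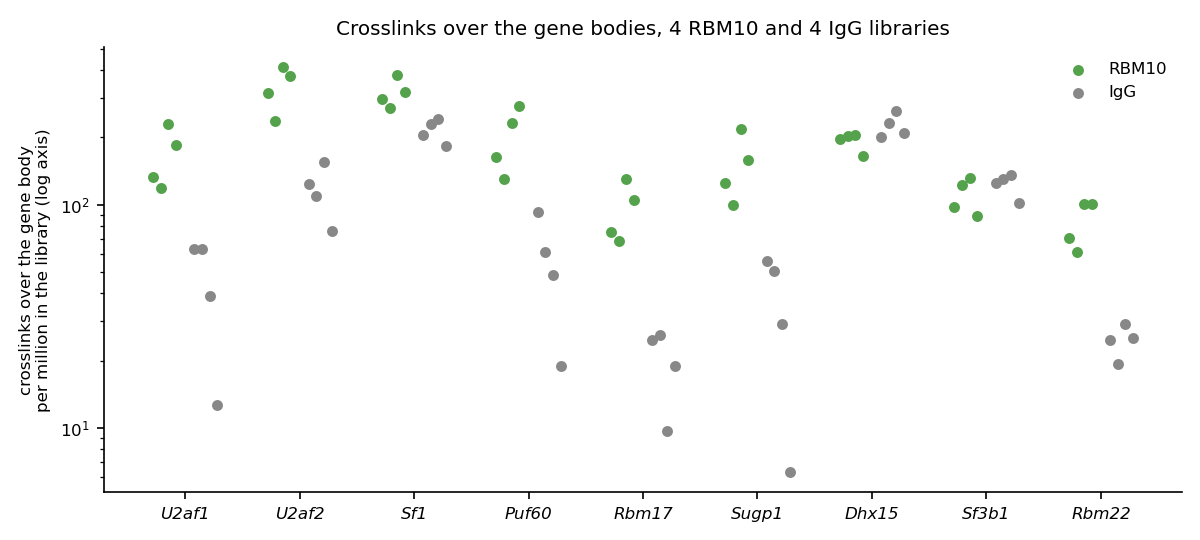
Crosslinks over each gene body in CPM (log axis), the count scaled to the library's total, in the 4 RBM10 and 4 IgG libraries, 1 point per library in replicate order. All RBM10 points lie above all IgG points for every gene except Dhx15 and Sf3b1, as they do for 30.1% of the 9284 genes tested.

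Both U2AF subunits were crosslinked in this way. U2af2 carried 353, 677, 1174 and 293 crosslinks in RBM10 1 to 4 and 119, 243, 16 and 12 in IgG 1 to 4. In CPM, the count scaled to the library's total, that is 336 ± 76.7 against 116 ± 32.9 (SD, n = 4 each), with no overlap (log2 fold change 1.28, SE 0.21, edgeR adjusted p = 0.00117). U2af1 carried 149, 339, 652 and 144 crosslinks against 61, 140, 4 and 2, or 167 ± 50.4 against 44.5 ± 24.1 CPM (1.35, SE 0.28, edgeR adjusted p = 0.00355). IgG 3 and IgG 4 rest on a handful of crosslinks. With pairs 1 and 2 alone the values were 1.06 for U2af2 and 0.80 for U2af1, and both stayed called.

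Among the U2AF-related and G-patch factors Rbm17 had the highest log2 fold change of the 9, with 84, 195, 369 and 81 crosslinks against 24, 58, 1 and 3 (1.71, SE 0.28, edgeR adjusted p = 0.0011). Puf60 had 183, 370, 663 and 214 against 89, 136, 5 and 3 (1.37, SE 0.31, edgeR adjusted p = 0.00496). Sugp1 had 140, 283, 622 and 123 against 54, 112, 3 and 1 (1.46, SE 0.31, edgeR adjusted p = 0.00372). Rbm22, the late factor, had 79, 175, 286 and 78 against 24, 43, 3 and 4 (1.60, SE 0.27, edgeR adjusted p = 0.00135). In all 4 genes the lowest RBM10 library exceeded the highest IgG library in CPM, as for 30.1% of genes tested. The reverse held for 8.77%. Each of the 6 calls held in every alternative run, where their log2 fold changes lay between 0.80 and 1.99 and adjusted p at or below 0.0280.

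The 3 remaining genes differed. Sf1 had 330, 773, 1088 and 248 crosslinks in RBM10 libraries and 198, 507, 25 and 29 in IgG libraries, 317 ± 47.6 against 215 ± 26.1 CPM. The groups did not overlap, but the log2 fold change of 0.29 was not called (SE 0.16, edgeR adjusted p = 0.166). Without TMM factors it was 0.56 (adjusted p = 0.0255). Dhx15 had 220, 577, 582 and 128 crosslinks against 193, 513, 27 and 33, or 192 ± 18.4 against 226 ± 27.7 CPM, with overlapping libraries. It was called lower (-0.47, SE 0.16, edgeR adjusted p = 0.0367), and this call was lost with the replicate pair as a block (-0.46, adjusted p = 0.0641), without TMM factors (-0.21, adjusted p = 0.369), with DESeq2 (-0.41, adjusted p = 0.0592), under both milder filters (-0.37, adjusted p = 0.132, for 10 crosslinks or more and -0.32, adjusted p = 0.314, for none), with pairs 1 and 2 alone (-0.30, adjusted p = 0.0563) and without any 1 of RBM10 1, 3 and 4 and IgG 1, 2 and 3 (adjusted p from 0.0553 to 0.174). Sf3b1 had 109, 347, 375 and 69 against 121, 289, 14 and 16 (-0.43, SE 0.18, edgeR adjusted p = 0.0703). It was called lower with each position counted once (-0.48, adjusted p = 0.0226), without RBM10 2 (-0.52, adjusted p = 0.0448) and with pairs 1 and 2 alone (-0.37, adjusted p = 0.0476).

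Within the genes the position of the crosslinks set RBM10 and IgG libraries further apart. The stretch 41 to 100 nt upstream of annotated 3' splice sites makes up 3.34% of the bases of the 9 genes. Of the bases of all protein-coding genes it makes up 1.11%. Here and in the shares below, exons found only in annotated retained intron transcripts count as intron, a setting chosen after seeing the data. The stretch held 15.6, 13.9, 20.2 and 20.0% of their crosslinks in RBM10 1 to 4 and 1.47, 1.81, 1.02 and 0% in IgG 1 to 4. In counts that is 2224 of 12572 RBM10 crosslinks and 51 of 3125 IgG crosslinks. All protein-coding genes together had 16.3, 14.0, 25.2 and 23.9% in RBM10 1 to 4 and 0.981 to 2.13% in IgG libraries. The share of the 9 genes was lower in each RBM10 library, while the stretch makes up more of their bases. With those exons counted as exons the 9 genes had 12.7 to 18.7% and all protein-coding genes 12.8 to 23.0% in RBM10 libraries. The pyrimidine tract and the AG bound by U2AF lie in the last 40 nt. These make up 2.26% of the bases of the 9 genes and 0.752% of those of all protein-coding genes. In the 9 genes they held 1.76, 1.85, 2.37 and 2.61% in RBM10 1 to 4 and 2.38, 1.76, 4.08 and 4.85% in IgG 1 to 4, the last 2 from 4 and 5 crosslinks. Summed over libraries the shares were 2.16% (272 of 12572) and 2.11% (66 of 3125), and over all protein-coding genes the library means were 1.88% and 1.15%. Exons held 8.21 to 20.8% against 34.0 to 39.3%. Smoothed over 5 nt, the RBM10 crosslinks of the 9 genes were densest 67 nt before the 3' splice site, and those of all protein-coding genes 60 nt before it.

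**Figure D4:**
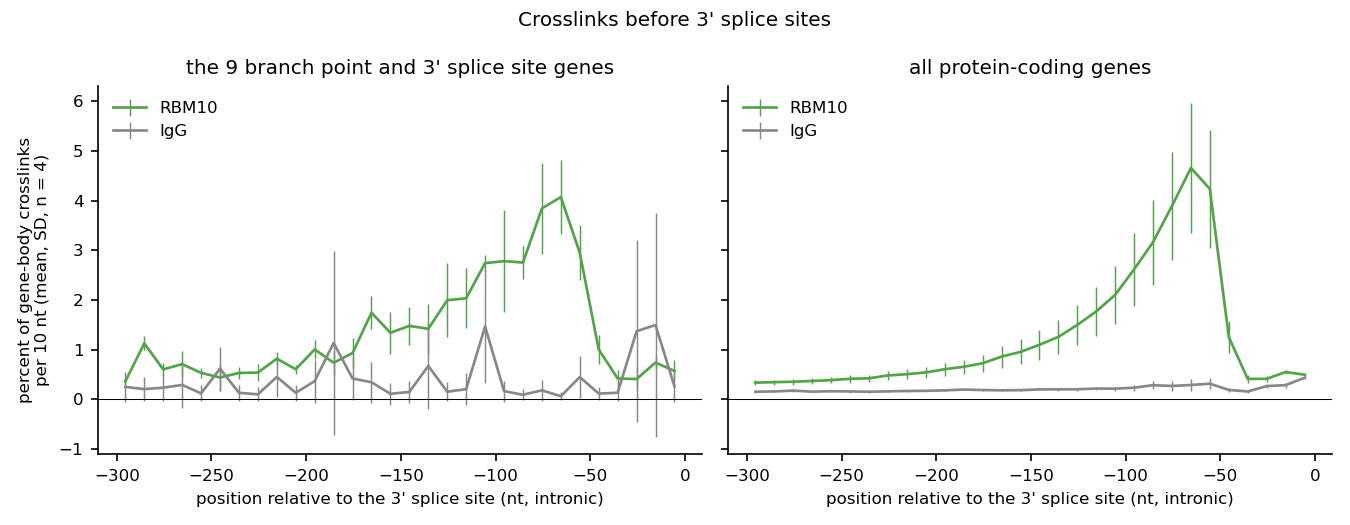
Crosslinks per 10 nt before annotated 3' splice sites, as a percent of all gene-body crosslinks of the same genes (vertical axis), against the intronic position before the splice site in nt (horizontal axis), for the 9 genes (left) and all protein-coding genes (right). Lines are means of 4 RBM10 or 4 IgG libraries and bars the SD. The RBM10 lines rise toward 60 to 70 nt before the splice site and fall within the last 40 nt, and the IgG line of the 9 genes rests on few crosslinks.

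The genes varied in how much of their signal lay in that stretch. The share of each gene's own bases in it was not set beside these values, and it differs with gene length and number of introns. Dhx15 has 13 annotated introns in 40311 nt and Puf60 has 12 in 10763 nt. The order below is therefore not an order per base. Sugp1 had the highest share, 31.8 to 43.1% of its RBM10 crosslinks per library, followed by Rbm22 with 12.7 to 30.4%, Rbm17 with 16.7 to 25.5%, U2af2 with 16.7 to 22.9% and Puf60 with 15.8 to 19.2%. Sf3b1 had 7.49 to 18.1%, Sf1 9.57 to 16.5%, U2af1 10.4 to 12.1% and Dhx15 4.85 to 9.62%. The IgG shares of single genes reached 6.25%, in Sugp1. The order depends on the setting for Rbm22 and Sf1. With exons of retained intron transcripts counted as exons, Rbm22 had 6.33 to 16.1% and Sf1 6.06 to 11.3%, and the RBM10 ranges of the other 7 genes were the same. With those exons as intron, the ranges of neighbours in the order above overlap except those of Sugp1 and Rbm22 and those of U2af1 and Dhx15. Dhx15 and Sf3b1, not higher in RBM10 over the whole gene, still had more RBM10 crosslinks here than IgG crosslinks, 111 against 7 and 119 against 3 in all.

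Summed per gene over the last 100 nt of its introns, now with all annotated exons left out, RBM10 crosslinks exceeded IgG crosslinks for all 9 genes, with 546 against 29 for U2af2, 496 against 11 for Sugp1, 301 against 20 for Puf60, 258 against 15 for Sf1, 176 against 1 for Rbm17, 173 against 10 for U2af1, 151 against 11 for Dhx15, 131 against 11 for Sf3b1 and 81 against 2 for Rbm22. In CPM the RBM10 and IgG libraries separated for 8 of them, all but Sf1, and for 88.1% of the 3007 genes tested, so this is what most genes show. For Rbm17, with 1 IgG crosslink, the ratio per library total was 79.9 with an exact 95% interval from 14.1 to 3172 that covers counting error only. Without TMM factors 99.7% of genes, and all 8 tested members, were called higher, with log2 fold changes from 2.37 (Sf3b1) to 5.82 (Rbm17). TMM sets the typical gene near 0 (median log2 fold change 0.37 against 3.45 without it). Its factors were 0.297 and 0.170 for IgG 1 and IgG 2, but 0.913 and 0.815 for the shallow IgG 3 and IgG 4. The part of this split in the values that follow was not tested. With TMM factors 0.964% of genes were called, 0.466% higher and 0.499% lower. None of the 8 tested members was called then. Rbm17 stood at 3.02 (SE 1.14, edgeR adjusted p = 0.160), a value that depends on the prior count. It was called with at least 10 crosslinks (3.51, adjusted p = 0.0416) and with no filter (3.55, adjusted p = 0.0388). Sugp1 stood at 1.13 (SE 0.58, edgeR adjusted p = 0.321). The other 6 lay between -0.77 and 0.00. With the replicate pair as a block 2 genes were called in all in place of 29, and without IgG 2 also 2. Rbm22 was not tested, because much of its intron sequence is exon of annotated retained intron transcripts. With those not counted as exons it had 165 RBM10 and 2 IgG crosslinks, and a log2 fold change of 1.96 (edgeR adjusted p = 0.281).

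Single positions were then examined. The 9 genes had 7420 crosslinked positions in the RBM10 libraries together, 246 of them in at least 3 of the 4 libraries and 66 in all 4, against 3 of 2288 positions in at least 3 IgG libraries, all in Dhx15. IgG 3 and IgG 4 held 98 and 103 crosslinks over these genes, so few positions could recur in 3 IgG libraries and the counts of recurrent positions are not compared. The 2288 IgG positions are few among the 197119 bases of these genes, so most positions lack an IgG crosslink in any case. Absence from IgG, here and below, does not by itself mark a position as bound by RBM10. Of the 246, 226 had no crosslink in any IgG library, 11 lay in exons and 76 lay 41 to 100 nt upstream of a 3' splice site. U2af2 had 66 of them, Sf1 49, Puf60 40, U2af1 31, Sugp1 18, Dhx15 17, Rbm17 14, Rbm22 10 and Sf3b1 1. The crosslinked base was C in 41.9 ± 4.99% of RBM10 crosslinks and 13.5 ± 4.66% of IgG crosslinks, and T (U in RNA) in 37.0 ± 4.07% and 58.7 ± 3.32% (SD, n = 4 libraries each, 8 genes without Rbm22).

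The windows around the most crosslinked position of 4 of the called genes are shown next because they hold the RNA that RBM10 was crosslinked to. Each was read from mm9 in the 5′ to 3′ direction of the gene, starts 30 bases before the crosslinked base and has that base in capitals. That of Sugp1 runs to the 3' splice site. They lie at 17:31790389-31790449 (minus strand) for U2af1, 7:5020731-5020791 (plus) for U2af2, 2:11510493-11510553 (minus) for Rbm17 and 8:72583556-72583651 (plus) for Sugp1.
U2af1: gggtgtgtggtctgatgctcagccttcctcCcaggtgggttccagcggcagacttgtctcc
U2af2: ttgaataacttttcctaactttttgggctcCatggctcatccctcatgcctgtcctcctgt
Rbm17: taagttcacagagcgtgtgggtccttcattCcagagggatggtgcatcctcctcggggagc
Sugp1: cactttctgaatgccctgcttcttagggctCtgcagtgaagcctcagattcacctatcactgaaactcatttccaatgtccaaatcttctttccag

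In each of these windows the capital base is a C. The U2af1 position (31790419) had 4, 9, 39 and 6 crosslinks in RBM10 1 to 4 and 1 in all IgG libraries. It lies 906 nt upstream of the U2af1-202 exon 3, and the next base in the direction of transcription held 35 RBM10 crosslinks. The Sugp1 position (72583586) had 5, 5, 41 and 7 crosslinks and none in IgG. It lies 66 nt before the 3' splice site of a 347-nt intron that makes up 1.19% of the gene and held 283 RBM10 crosslinks (24.2% of the gene's) and 3 IgG crosslinks. The U2af2 position (5020761) had 5, 21, 18 and 6 crosslinks and 2 in IgG, 363 nt downstream of the end of the 64-nt exon and 285 nt before the next 3' splice site. The Rbm17 position (11510523) had 1, 5, 8 and 2 crosslinks, none in IgG, and lies 32 nt inside its intron from the 5' splice site. Rbm22 had 0, 3, 6 and 2 crosslinks at 60728933, 78 nt before a 3' splice site, and none in IgG. In Dhx15 and Sf3b1 the most crosslinked positions held 12 and 9 RBM10 crosslinks.

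A second cluster in U2af2 is shown because it lies at the distance where RBM10 crosslinks are densest. It was picked after its counts were seen. The stretch 7:5026634-5026742 (plus strand) ends at the 3' splice site of exon 10 of U2af2-201, and its capitals mark the bases 79, 78 and 74 nt before that site.
U2af2, second cluster: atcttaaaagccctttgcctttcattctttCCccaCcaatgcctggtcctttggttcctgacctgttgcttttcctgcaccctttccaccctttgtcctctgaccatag
These bases had 42, 35 and 39 RBM10 crosslinks in all and none in IgG, and RBM10 1 to 4 held 6, 8, 18 and 10 at the first of them. They stand upstream of the pyrimidine-rich run that ends in the AG of the splice site.

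The last comparison is of crosslinks beside the alternative exons of these genes, counted in the exon and 300 nt of intron on each side. The Puf60 exon had 25, 39, 77 and 23 crosslinks in RBM10 1 to 4 and 7, 2, 0 and 0 in IgG 1 to 4. Of the 164 RBM10 crosslinks 125 lay upstream, 3 in the exon and 36 downstream, and of the 9 IgG crosslinks 5 lay upstream. The single base 170 nt upstream of the exon held 6, 5, 17 and 2 RBM10 crosslinks and none in IgG. The whole 884-nt intron before the exon makes up 8.21% of the gene and held 404 RBM10 crosslinks, 28.3% of the gene's, against 14, 0, 0 and 0 in IgG libraries. With TMM factors the log2 fold change beside the exon was 1.04 (SE 0.61, edgeR adjusted p = 0.175) and not called, where 31.9% of the 539 tested exons were called (19.1% higher and 12.8% lower). It was called without TMM factors (2.95, adjusted p = 1.01e-05), where 83.3% of exons were called higher. DESeq2 also called it (1.69, adjusted p = 0.00978), as did milder filters (2.07, adjusted p = 0.0185, with at least 10 crosslinks, and 2.20, adjusted p = 0.0197, with none). So did the run without IgG 1 (2.81, adjusted p = 0.0246). DESeq2 and both milder filters called more exons in all than the main run, with the numbers given further below. The milder filters also tested more exons.

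**Figure D5:**
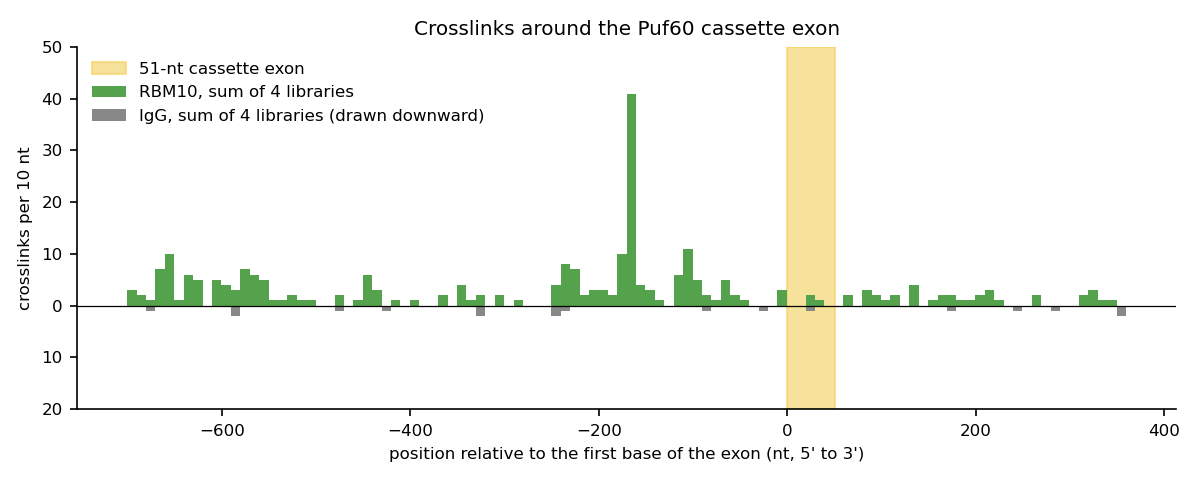
Crosslinks per 10 nt around the 51-nt Puf60 exon (yellow) against the position relative to its first base in nt, summed over the 4 RBM10 libraries (green, upward) and the 4 IgG libraries (grey, drawn downward as counts). The highest RBM10 bar, 41 crosslinks, starts 170 nt upstream of the exon, and the IgG bars stay at or below 2.

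The 76-nt Sf1 exon had 38, 56, 152 and 47 crosslinks in RBM10 libraries and 14, 15, 1 and 0 in IgG libraries. Of these, 269 of 293 RBM10 crosslinks and 19 of 30 IgG crosslinks lay upstream. The most crosslinked Sf1 position (6368252, with 4, 1, 22 and 5 RBM10 crosslinks and none in IgG) lies there, 112 nt before the exon. The stretch 19:6368222-6368469 (plus strand) is shown with that base and the exon in capitals, since both the exon's inclusion and these crosslinks were measured.
Sf1 exon 3 with flanks: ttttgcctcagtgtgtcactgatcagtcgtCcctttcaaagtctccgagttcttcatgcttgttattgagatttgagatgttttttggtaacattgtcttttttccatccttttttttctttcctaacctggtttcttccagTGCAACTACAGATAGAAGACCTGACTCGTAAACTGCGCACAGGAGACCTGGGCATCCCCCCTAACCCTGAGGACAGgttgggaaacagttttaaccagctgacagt
Its log2 fold change was 0.24 with TMM factors (SE 0.50, edgeR adjusted p = 0.736) and 2.19 without (adjusted p = 3.37e-05). The 64-nt U2af2 exon had 52, 98, 189 and 54 crosslinks against 16, 27, 0 and 0 (0.25, SE 0.49, edgeR adjusted p = 0.716, and 2.20 without TMM factors, adjusted p = 1.04e-05). Downstream of it lay 234 of 393 RBM10 crosslinks and 31 of 43 IgG crosslinks, so this placement is not particular to RBM10. The 205-nt Sf1 exon had 10, 28, 23 and 4 crosslinks in RBM10 libraries and 5, 35, 1 and 0 in IgG libraries, so IgG 2 held most of the IgG crosslinks. It fell below the filter on low counts with all libraries, and was tested in 7 alternatives that kept it. It was called lower in RBM10 relative to the typical exon without RBM10 4 (-2.04, edgeR adjusted p = 0.00654), without IgG 1 (-2.43, adjusted p = 9.56e-05), without IgG 3 (-2.38, adjusted p = 4.92e-05), without IgG 4 (-2.49, adjusted p = 9.23e-07) and with pairs 1 and 2 alone (-2.08, adjusted p = 1.98e-05). With all libraries it was not called, at -1.18 (adjusted p = 0.103) with at least 10 crosslinks and also below 0 with no filter (adjusted p = 0.248). Beside the exon 3 versions of U2af1, the 300 nt upstream held 105 RBM10 and 2 IgG crosslinks for U2af1-201 and 73 and 5 for U2af1-202, and the exons themselves held 0 and 3 RBM10 crosslinks.

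Among the 34 related genes 30 were tested over gene bodies, 13 called higher in RBM10 and 1 lower, with a median log2 fold change of 0.58. Over all 9284 genes 20.4% were called higher and 17% lower, with a median of 0.05. Eftud2, the GTPase of the U5 snRNP, had 343 ± 95.5 against 114 ± 13.97 CPM (SD, n = 4 each; 1.28, SE 0.20, edgeR adjusted p = 0.00103). Sf3a3 (1.32, adjusted p = 0.00294), Sf3a2 (1.33, adjusted p = 0.0031), Snrnp200 (1.07, adjusted p = 0.00424) and Sf3b3 (0.83, adjusted p = 0.00613) followed by p. Of the 19 other G-patch genes 8 were called higher and 2 lower (median 0.64), beside the same 20.4% and 17% over all genes. Rbm5, the closest relative of Rbm10, had 307 ± 71.7 against 82.7 ± 18.1 CPM (1.52, SE 0.21, edgeR adjusted p = 0.000474), Sugp2 had 1.60 (adjusted p = 0.0013) and Rbm10 itself 1.22 (adjusted p = 0.00294). Cmtr1 was higher (0.87, adjusted p = 0.0042) and Gpatch2 lower (-0.85, adjusted p = 0.0115). At intron ends 18 and 6 genes of the lists were tested, and 1 was called, Cherp, lower relative to the typical gene (-1.42, edgeR adjusted p = 0.0469) although its libraries separated upward, at 42.8 ± 13.1 against 9.15 ± 6.40 CPM.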

How the data were processed

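The authors deposited TPM per transcript for RNA-seq, 1 table per cell type, and crosslink counts per nucleotide and strand for iCLIP. Per the labels' design text the iCLIP reads were mapped to mm9. The submitters' processing notes also name mm10, with no role. Quantifier, aligner and barcode collapse: not given in the sources used here. Of 100249 transcripts 84877 (84.67%) were joined by identifier to GENCODE vM1 (mm9), and gene TPM is the sum over them. TPM were tested as log2(TPM + 1), a scale that understates changes of low genes, for genes at 1 TPM or more in at least 3 libraries, and shares and PSI in percent (mean 5 to 95), with limma 3.58.1. Crosslinks were tested with edgeR 4.0.16 (TMM, filterByExpr, library size all crosslinks) and alternatively DESeq2 1.42.0, in R 4.3.3, with p-values 2-sided and adjusted over all features. The tests of crosslinks and of gene TPM between KO and WT were run on simulated data. Those of shares, PSI, the interaction and the clone kinds were not. PSI depends on how the quantifier divided reads. Python 3.11.15 was used elsewhere. Whether WT md or ES samples were separate cultures is not stated, so p-values measure the spread between samples, which may be technical.

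The design text gives each RBM10 replicate its own IgG control, so iCLIP numbers pair the libraries. Correlations of same-numbered deviations were 0.0588, 0.1147, 0.0261 and 0.0453. The 9 genes and the lists were chosen with earlier results of these data known. Named beyond them were up to 5 called list genes with the lowest p per comparison, cassette exons and transcripts by event TPM, the most crosslinked position seen in at least 3 RBM10 libraries, and for each gene the most similar TPM profile. The sequence of a further window is not reported here.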

Additional observations from a re-analysis of the deposited data

Results flagged for a closer look

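In groups of 4 samples, 49 sets of values of these genes were checked for a sample that lies far from the others, and 3 had one, where chance alone gives about 1 in 20. U2af2 in md KO cells had 107.9 TPM in KO4, against 141.1 to 146.7 TPM in the other clones. At the intron ends of Rbm17 a single IgG library had a crosslink, at 1.04 CPM, and the other 3 had none. At those of Rbm22 a single IgG library had crosslinks, at 0.903 CPM, and the other 3 had none. These values rest on 1 crosslink for Rbm17 and 2 for Rbm22. In a set where 3 of 4 libraries are empty the remaining one always lies apart, so the rate above does not apply.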

How the results depend on the processing

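The values of single genes, exons and transcripts were computed under 883 alternatives, of which 785 kept direction and side of the threshold. For the settings below the cause of a change was not tested. Genes called in md cells numbered 0 with a pseudocount of 0.1, 6 with no filter, 0 at 5 TPM or more and 0 with the replicate block, and 0 to 4 when single libraries were left out. In ES cells they numbered 774 with no filter and 422 with the block, and 21 to 3985 with single libraries left out; members called were 0 with no filter, 0 with quantile normalization, 0 with the block and 0 to 5 with libraries left out. The md and ES numbers are only names, and same-numbered samples had deviations correlated from -0.1346 to 0.1646. The interaction had 225 calls with no filter, and exon 9 against exon 3 clones 51 to 2228 with libraries left out (chosen after seeing the data). Called transcripts in md were 1 on the logit scale and 0 to 3 with libraries left out, and exons 2 and 0 to 1. In ES, transcripts were 5 (logit), 18 (5 TPM in every library), 0 (block) and 1 to 24, and exons 9, 50, 0 and 0 to 12.

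For iCLIP gene bodies 1794 to 4018 genes and 6 to 8 members were called with libraries left out. At intron ends calls numbered 2999 without TMM, 81 with DESeq2, 288 at 10 crosslinks or more, 294 with no filter, 12 with each position counted once, 88 with pairs 1 and 2 alone, 2 with the replicate block, 47 with retained introns not counted as exons (chosen after seeing the data) and 2 to 46 with libraries left out. Members called there were 8 without TMM, 1 (Rbm17) at 10 crosslinks or more and 1 (Rbm17) with no filter. Beside cassette exons calls numbered 456, 302, 624 and 585 without TMM, with DESeq2, at 10 crosslinks and with no filter, 317 with pairs 1 and 2, 53 with the block, 96 with 100 nt flanks and 82 to 220 with libraries left out, and members 3, 1, 1 and 1, then 1 with pairs 1 and 2, and 0 to 2.

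Values near 0 changed sign. With the block Sf3b1 in md was 0.060, and with quantile normalization U2af1 in ES was -0.070. At intron ends, without TMM, Puf60 was 2.90, Sf1 2.51, Sf3b1 2.37, Dhx15 2.53 and U2af1 2.80. At 10 crosslinks Puf60 was 0.19, Sf1 0.27 and U2af1 0.29; with no filter Puf60 was 0.23, Sf1 0.31, Dhx15 0.0037 and U2af1 0.34; with the block Puf60 was 0.13. U2af2 was -0.33 with each position once, -0.32 with pairs 1 and 2 and -0.0056 with retained introns not counted as exons. Beside cassette exons, Sf1 was -0.41 with each position once and -0.32 with pairs 1 and 2, and U2af2 -0.22 with these pairs. With single libraries left out, values that changed sign had these ranges. In md they ran from -0.060 to 0.060 for Sf3b1 and -0.085 to 0.090 for U2af1, and in ES from -0.019 to 0.014 for Puf60, -0.063 to 0.017 for Rbm22 and -0.037 to 0.10 for U2af1. For exon 9 against exon 3 clones they ran from -0.018 to 0.31 for Sugp1, -0.12 to 0.20 for Sf1, -0.31 to 0.049 for Sf3b1, -0.31 to 0.46 for Dhx15, -0.39 to 0.047 for U2af2 and -0.29 to 0.23 for U2af1. In points they ran from -2.17 to 1.26 for Sf1-010 in md, from -0.17 to 2.45 for Sf1-001 in ES and from -2.10 to 5.06 for the longer Sf1 exon in ES. At intron ends they ran from -0.49 to 0.20 for Puf60, -0.56 to 0.071 for Sf1, -0.91 to 0.31 for Sf3b1, -0.70 to 0.11 for Dhx15, -0.16 to 1.04 for U2af2 and -0.31 to 0.34 for U2af1, and beside cassette exons from -0.018 to 0.81 for Sf1 and -0.035 to 0.64 for U2af2. IgG 3 and IgG 4 hold the fewest crosslinks and limit the intron end and exon tests. Beside cassette exons their TMM factors were both 1.09, against 0.409 for IgG 1 and 0.312 for IgG 2.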

Other observations

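Across the 13 RNA-seq libraries, with log2(TPM + 1) centred within each table, each gene has a most similar other gene among 10558. The Pearson r was 0.98 for Dhx15 with Elavl1, 0.97 for Rbm17 with Usp16, 0.97 for Sf1 with Rbm27, 0.96 for Sf3b1 with Gm17122, 0.95 for Puf60 with Pja1, 0.95 for U2af2 with Eif4b, 0.94 for Sugp1 with Vps35, 0.94 for Rbm22 with Odz4 and 0.91 for U2af1 with an annotated Y_RNA gene. Among the 9 genes themselves the highest was 0.85, between Sf1 and Rbm17, with 0.85 between Sf1 and Dhx15, 0.84 between Dhx15 and Sf3b1, 0.84 between Sf1 and Sf3b1 and 0.83 between U2af2 and Puf60. The lowest was -0.72, between Sugp1 and Sf3b1. These describe the 13 libraries, which share genotype groups, and the choice of the highest of many makes them high.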
